A study of Arabidopsis thaliana with 10 samples.

Results

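The comparison set pollen of plants that express Myc-tagged RTL1 from the sperm promoter of MGH3 (pMGH3::RTL1) against pollen of untransformed wild-type plants (WT Col-0). It rests on 4 of the 10 libraries of the series, 2 for pMGH3::RTL1 and 2 for WT Col-0, and the members were the genes and transposable elements (TEs) counted in them. The pMGH3::RTL1 libraries come from independent transgenic lines in the Col-0 background, so the spread between them can hold a difference between lines, and nothing in the labels says how the WT Col-0 samples were separated. A further pair of libraries, pLAT52::RTL1, expresses the same tagged RTL1 from a promoter of the microspore and vegetative cell. It entered the fit to share the estimate of the spread, and its values stand beside some results. Whole mature pollen was sequenced, so a lower level in sperm and fewer sperm cells per grain cannot be told apart. For a gene or TE also transcribed in the vegetative cell, a bound on the whole grain is no bound on the change in sperm.

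A pollen grain of Arabidopsis thaliana consists of a large vegetative cell that grows the tube and, inside it, the sperm cells that fertilise egg and central cell. RTL1 is an RNase III-like enzyme that cleaves double-stranded RNA and thereby prevents the formation of small interfering RNAs (siRNAs), the short RNAs that direct DNA methylation and silencing of TEs. MGH3 encodes a histone H3 variant of the male germline and is a target of DUO1, the MYB transcription factor that switches on the sperm programme. Its promoter therefore restricts the transgene to the generative cell and the sperm. The question was how far messenger RNA in the grain changed when RTL1 was placed there, and which size of change these libraries can bound.

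The stretch upstream of MGH3 is printed because its activity defines the cells in which the transgene is switched on. It holds the 250 bases before the annotated start of the gene (AT1G19890) on the plus strand, chr1:6904713-6904962 of RefSeq's TAIR10.1 reference, and how much of it the construct used was not analysed here. Capitals mark a DUO1-type MYB site, searched as AACCGTC or AACCGCC on both strands.
MGH3 upstream: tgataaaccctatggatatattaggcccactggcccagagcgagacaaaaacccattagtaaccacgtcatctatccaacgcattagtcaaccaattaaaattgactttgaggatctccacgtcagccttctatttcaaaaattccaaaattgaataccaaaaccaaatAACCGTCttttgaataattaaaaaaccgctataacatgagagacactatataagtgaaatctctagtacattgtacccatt
The site starts 81 bases before the gene. Such a site stood in the same window of 7 of the 22 genes of the sperm lineage list described below (31.8%) and of 635 of 27437 protein-coding genes (2.31%). The list was chosen to hold DUO1 and genes downstream of it such as MGH3, so the 2 shares side by side are no test. A match is only a description of the letters.

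Reads over genes and TEs numbered 51531949 and 51654251 in pMGH3::RTL1, against 43490027 and 51786853 in WT Col-0. TEs took 1.92% and 2.16% of them in pMGH3::RTL1 and 1.99% and 2.01% in WT Col-0. Replicates differed by far more than counting noise, which would give a chi-square per degree of freedom near 1, against values of 50.7 within pMGH3::RTL1 and 29.6 within WT Col-0. The value within pLAT52::RTL1, which shares the estimate of the spread, was 226. Features whose normalized counts averaged at least 100 over the 6 libraries of the fit are called well measured from here on. Among these 5887 features (5548 genes and 339 TEs), the median difference between replicates was 0.15 in pMGH3::RTL1 and 0.14 in WT Col-0 on the log2 scale. Normalized counts are the reads divided by the size factor of the library.

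RTL1 (AT4G15417, chromosome 4, 8821717 to 8823076) had 134 and 156 reads in pMGH3::RTL1, against 0 and 0 reads in WT Col-0. Both lines therefore carried the transcript and both controls lacked it at this depth, and its normalized count was at least 44.4-fold higher in pMGH3::RTL1, taking 3 reads per library as the limit of a count of 0 (DESeq2 adjusted p 2.77e-06). pLAT52::RTL1 had 270 and 138 reads. The genes next to it, ATB' GAMMA and AT4G15420, had log2 fold changes of -0.08 ± 0.26 SE and 0.05 ± 0.24 SE, and the intergenic intervals at its ends held 0 reads in all 6 libraries. The reads thus lay within the annotated gene.

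Besides RTL1, 5 features passed the DESeq2 test at an adjusted p of 0.05, so that 4 of 27651 tested features were higher (0.0145%) and 2 were lower (0.00723%) in pMGH3::RTL1. RBL3 and AT5G25590 fell, AT4G35170 and RBCS1A rose, and AT2G39240 had reads in one line only. No TE was called.

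RBL3 (AT5G07250, chromosome 5, 2274260 to 2275990) encodes a member of the rhomboid family, proteases that cut other proteins within membranes. Its normalized counts were 85.5 and 67.4 in pMGH3::RTL1, against 286 and 323 in WT Col-0. Both lines lay far below both controls, and the log2 fold change was -2.00 ± 0.31 SE, with a 95% interval of -2.61 to -1.38 (DESeq2 adjusted p 2.77e-06). In pLAT52::RTL1 its normalized counts were 191 and 290. Relatives of RBL3 with more RNA in pollen were bounded close to WT Col-0. RBL5 had normalized counts of 16104 and 16330 in pMGH3::RTL1 and of 15980 and 16719 in WT Col-0, RBL1 of 12006 and 12325 against 11623 and 12890, and RBL6 of 1431 and 1540 against 1571 and 1695. These 3 genes were each shown to lie within 2-fold of WT Col-0 by a test whose null hypothesis is a change of at least 2-fold (DESeq2 lessAbs test, adjusted p at most 1.48e-05). RBL2, RBL4 and RBL7 held at most 4 reads in any of these libraries. The gene that overlaps the start of RBL3, IQD24, held at most 3 reads, and the TE and the intergenic interval after RBL3 held 0.

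AT5G25590 (chromosome 5, 8906598 to 8909920), named in the reference for the plant domains DUF630 and DUF632, was the other gene to fall. It had normalized counts of 98.6 and 143 in pMGH3::RTL1, against 295 and 343 in WT Col-0, with no overlap. The log2 fold change was -1.40 ± 0.32 SE (DESeq2 adjusted p 0.0436), and the neighbouring AT5G25580 had one of 0.13 ± 0.21 SE.

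AT4G35170 (chromosome 4, 16736757 to 16738437), a late embryogenesis abundant hydroxyproline-rich glycoprotein gene, had normalized counts of 854 and 993 in pMGH3::RTL1, against 411 and 481 in WT Col-0. It rose by 1.05 ± 0.23 SE on the log2 scale, with a 95% interval of 1.51-fold to 2.84-fold (DESeq2 adjusted p 0.0334). In pLAT52::RTL1 the gene had 516 and 740, also above both WT Col-0 libraries. Its last bases overlap LHT7, a transporter gene with 26375 and 29112 reads in pMGH3::RTL1 and 23312 and 29111 in WT Col-0, so that some reads may be shared. LHT7 itself had a log2 fold change of -0.03 ± 0.17 SE.

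AT2G39240 (chromosome 2, 16384786 to 16387827), annotated as an RRN3-like initiation factor of RNA polymerase I, had 724 reads in pMGH3::RTL1 replicate 1 and 0 in replicate 2, against 0 and 0 in WT Col-0 (DESeq2 adjusted p 0.00926). The signal did not stop at the gene. The intergenic interval before it held 205 reads in pMGH3::RTL1 replicate 1, LOJ, the next gene on that side, held 17, and the interval after it held 7, while each of these had 0 in pMGH3::RTL1 replicate 2 and in both WT Col-0 libraries. Reads over this stretch of chromosome 2 thus came from 1 of the 2 pMGH3::RTL1 libraries, and without that library neither group had a read of the gene. Whether they reflect transcription in that line was not tested.

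The edgeR quasi-likelihood test called RTL1 alone of all features (adjusted p 0.00281), with an edgeR adjusted p of 0.0560 for RBL3 and of 0.535 for RBCS1A, AT4G35170 and AT5G25590. By edgeR, 447 features had an unadjusted p under 0.05. With WT Col-0 replicate 2 left out, no call of the 6 remained, RTL1 had an adjusted p of 0.107 (DESeq2) and AT3G03430, a calcium-binding EF-hand gene chosen after its values were seen, was the single call. Of the 6 calls, 3 remained without WT Col-0 replicate 1, 2 without pMGH3::RTL1 replicate 1 and 2 without pMGH3::RTL1 replicate 2, where the DESeq2 adjusted p of RBL3 was 0.112. AT4G35170 and AT5G25590 were lost whichever library was left out, with adjusted p-values of 0.327 to 1. When the 4 libraries were fitted alone, DESeq2 called 12 features, the 6 above and 6 more.

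Features that moved the same way in both lines were also picked without a test, since an exact permutation test of 2 against 2 samples cannot go below 0.333. The rule asked that both pMGH3::RTL1 libraries lie at least 1.5-fold beyond the nearer WT Col-0 library. Of the 5887 well-measured features, 5 were higher by this rule (0.0849%) and 12 were lower (0.204%). These counts describe how the values fell and are no test. The plot of features by library shows them with RBCS1A.

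**Figure D1:**
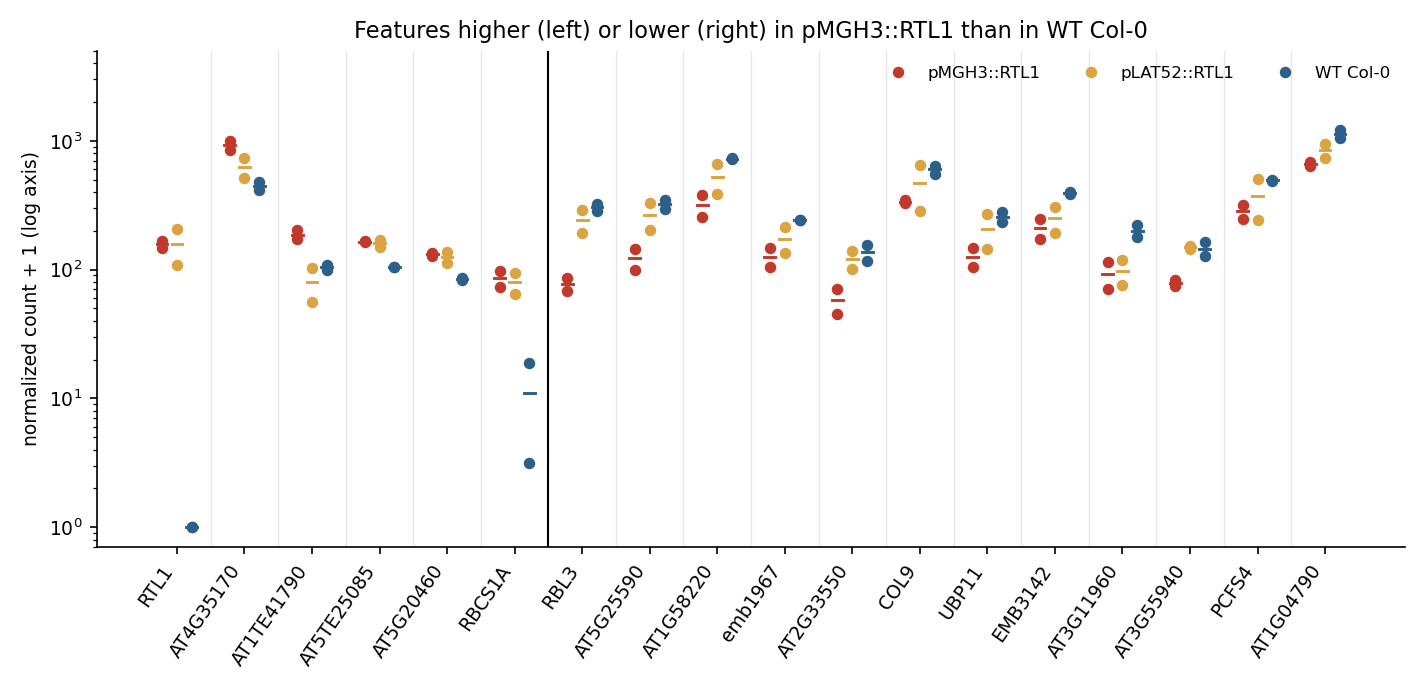
Normalized counts plus 1 (log axis) in each library of pMGH3::RTL1, pLAT52::RTL1 and WT Col-0, with the mean as a bar, for the 5 features at least 1.5-fold higher in both pMGH3::RTL1 libraries and RBCS1A (left of the line) and the 12 at least 1.5-fold lower (right). RTL1 is at 0 in both WT Col-0 libraries, and RBL3 has the widest gap of the lower genes, with 85.5 and 67.4 in pMGH3::RTL1 against 286 and 323 in WT Col-0.

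The higher features besides RTL1 and AT4G35170 were a TE with the gene inside it and a TE on its own. AT5G20460, a gene of unknown function, had normalized counts of 133 and 127 in pMGH3::RTL1, against 84.9 and 82.4 in WT Col-0. AT5TE25085, a LIMPET1 copy that spans that gene, had 162 and 164 in pMGH3::RTL1, against 104 in each WT Col-0 library. The pair overlaps and can count the same reads, so it stands for 1 locus. In pLAT52::RTL1 the gene had 137 and 111 and the TE had 170 and 148, above WT Col-0 as well. AT1TE41790, a SADHU retroelement with no gene over it, had 201 and 171 in pMGH3::RTL1, against 98.8 and 107 in WT Col-0. Its log2 fold change of 0.85 ± 0.36 SE did not pass (adjusted p 1 by DESeq2), and pLAT52::RTL1 had 102 and 55.3.

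All 12 lower features were genes. After RBL3 and AT5G25590, the widest gap was that of AT1G58220, a homeodomain-like protein gene, with normalized counts of 253 and 378 in pMGH3::RTL1 against 720 and 734 in WT Col-0. Its log2 fold change of -1.20 ± 0.28 SE narrowly missed the threshold (DESeq2 adjusted p 0.0634), and it passed in the fit of 4 libraries (adjusted p 1.05e-04). Another gene of the same annotated superfamily, AT2G33550, had 43.8 and 69.5 in pMGH3::RTL1 against 155 and 116 in WT Col-0.

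The other lower genes carry varied annotations. AT3G11960, which carries the domain of a cleavage and polyadenylation factor subunit, had 70.1 and 114 normalized counts in pMGH3::RTL1 against 222 and 178 in WT Col-0. EMB3142, a component of the nuclear pore, had 173 and 247 in pMGH3::RTL1 against 400 and 388 in WT Col-0. COL9, a CONSTANS-like regulator of flowering time, had 329 and 343 in pMGH3::RTL1 against 641 and 554 in WT Col-0 and passed the DESeq2 test in the fit of 4 libraries alone (adjusted p 0.0378). UBP11, a deubiquitinating enzyme gene, emb1967, which encodes a forkhead-associated domain protein, and AT3G55940, a phosphoinositide-specific phospholipase C gene, had log2 fold changes of -1.03 ± 0.34 SE, -0.97 ± 0.32 SE and -0.90 ± 0.34 SE, with a DESeq2 adjusted p of 1 each. PCFS4, a polyadenylation factor gene named after its values were seen, had 248 and 318 in pMGH3::RTL1 against 489 and 499 in WT Col-0. In pLAT52::RTL1, whose comparison shares the WT Col-0 libraries, EMB3142 had 192 and 307 and AT3G11960 had 75.1 and 118.

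Without the gap of 1.5-fold, pMGH3::RTL1 and WT Col-0 did not overlap for 790 features that were higher (13.4%) and 1148 that were lower (19.5%). The gap left few of them: 55 higher and 46 lower features cleared a gap of 25%, and 1 higher and 2 lower cleared 2-fold. By unadjusted p under 0.05, 201 of the 27651 tested features were higher (0.727%) and 107 were lower (0.387%).

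Genes of the sperm lineage, the cells in which the MGH3 promoter is active, were bounded about as often as well-measured features as a whole. Of the 22 genes of the list, 20 were well measured, none was called, and 17 of the 20 were shown to lie within 2-fold, against 86.3% of all well-measured features. MGH3 and DAZ3 were further shown to lie within 1.5-fold, which held for 11.1% of all well-measured features. The median log2 fold change of the 20 genes was -0.07, beside -0.02 over all well-measured features, and their largest and smallest were 0.59 and -0.32. Of the 22 genes, 7 were higher and 15 lower. Without overlap, 2 were higher and 6 lower, beside 13.4% and 19.5% of all well-measured features. The count within 2-fold depends on the fit, as given below.

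MGH3 itself had normalized counts of 3044 and 3417 in pMGH3::RTL1, against 3518 and 3158 in WT Col-0. The groups overlapped, and the 95% interval ran from 0.764-fold to 1.23-fold of WT Col-0. The gene's own transcript was thus bounded to within 1.31-fold in either direction while its promoter also drove the transgene.

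Several genes of proteins that work at fertilisation had 95% intervals almost as narrow. The adjusted test did not place them within 1.5-fold. HAP2, which fuses the sperm membrane with that of the female gamete, had 695 and 923 in pMGH3::RTL1, against 735 and 839 in WT Col-0. Its 95% interval stayed inside 1.38-fold. GEX2, which attaches the gametes to each other, had 918 and 996 in pMGH3::RTL1, against 959 and 1035 in WT Col-0, with an interval inside 1.38-fold as well. DMP9, a membrane protein that aids gamete fusion, had 1140 and 1616 in pMGH3::RTL1, against 1285 and 1282 in WT Col-0, with an interval inside 1.42-fold. Its partner DMP8 had few reads, 21.9 and 62.2 normalized counts in pMGH3::RTL1 against 48.2 and 49.2 in WT Col-0, and its 95% interval ran from 0.411-fold to 1.82-fold, without a bound of 2-fold.

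GEX1, a nuclear membrane protein of gametes, had lower values in both lines, 7065 and 8325 in pMGH3::RTL1 against 9669 and 9370 in WT Col-0. Its log2 fold change of -0.31 ± 0.21 SE did not pass the test (DESeq2 adjusted p 1), and a fall to below 0.608-fold lies outside the 95% interval. H2B.8, a histone variant of sperm chromatin, had 512 and 694 in pMGH3::RTL1, against 667 and 615 in WT Col-0. KPL, whose RNA pairs with that of ARI14 to form natural antisense siRNAs in sperm, had 794 and 1114 in pMGH3::RTL1, against 1162 and 1212 in WT Col-0. ARI14, named for this pairing outside the rule, held normalized counts of 15.3 and 8.43 in pMGH3::RTL1 and of 7.60 and 11.8 in WT Col-0, too few for a bound of 2-fold.

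The regulators DUO1, DAZ1 and DAZ2 were not shown to lie within 2-fold. Their mean normalized counts were 177, 62.0 and 163, and their log2 fold changes were -0.32 ± 0.31 SE, -0.70 ± 0.46 SE and -0.23 ± 0.34 SE. DAZ3, with 11542 and 14424 in pMGH3::RTL1 against 11714 and 14376 in WT Col-0, had a 95% interval inside 1.29-fold. DUO1 had normalized counts of 144 and 193 in pMGH3::RTL1, against 232 and 189 in WT Col-0, and its 95% interval ran from 0.523-fold to 1.22-fold. DAZ1, a zinc finger protein downstream of DUO1, had 32.9 and 59.0 in pMGH3::RTL1, against 86.2 and 63.1 in WT Col-0, without overlap but with a 95% interval of 0.329-fold to 1.16-fold. DAZ2, its partner, had 108 and 161 in pMGH3::RTL1 against 165 and 152 in WT Col-0.

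TET11 was the list's highest gene by fold change. This tetraspanin of the sperm surface had 226 and 228 in pMGH3::RTL1, against 122 and 178 in WT Col-0, a log2 fold change of 0.59 ± 0.29 SE (unadjusted p 0.0398, DESeq2 adjusted p 1). Its values in pLAT52::RTL1 were 226 and 224, so that the WT Col-0 libraries were the lower ones against either construct. TET12, its relative in sperm, had 909 and 1055 in pMGH3::RTL1 and 1005 and 1059 in WT Col-0.

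**Figure D2:**
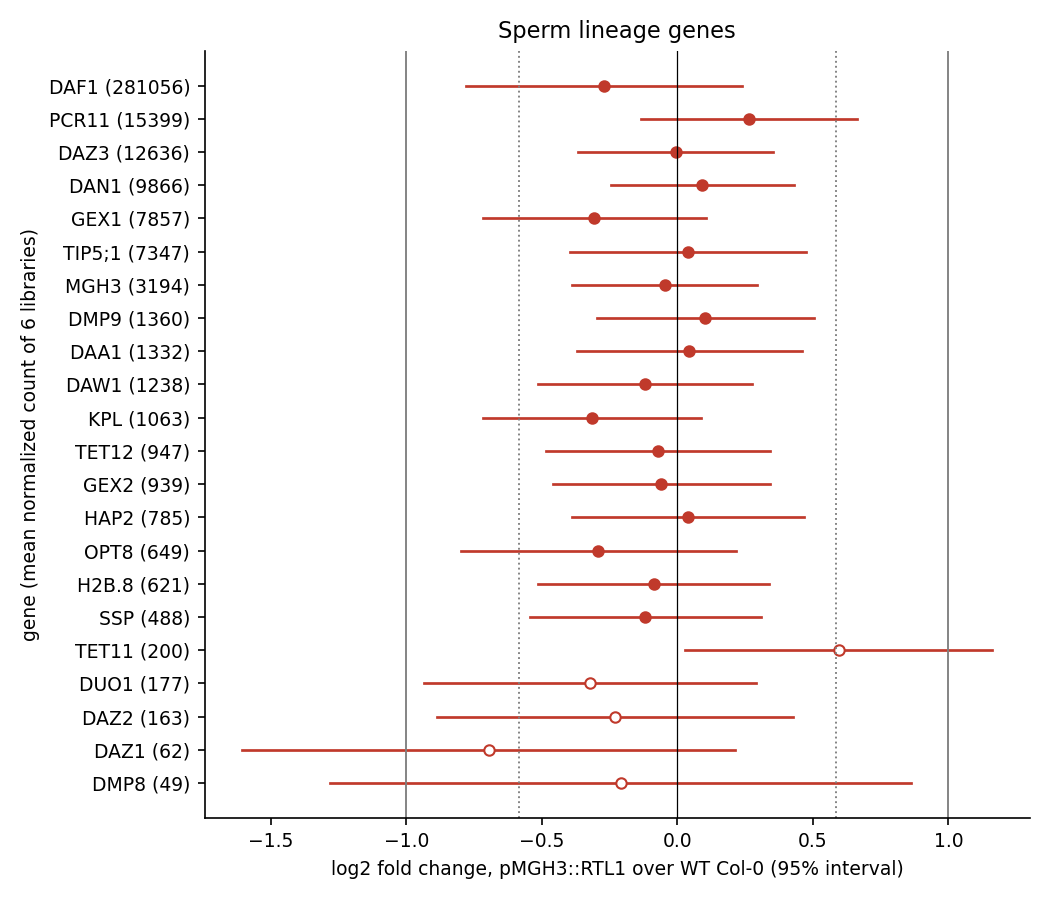
Log2 fold change of pMGH3::RTL1 over WT Col-0 with its 95% interval for the 22 sperm lineage genes, ordered by mean normalized count (in brackets). Filled points mark genes shown to lie within 2-fold (solid lines), and dotted lines mark 1.5-fold. The 17 filled genes all have means of at least 488, and TET11 is the single gene whose interval lies above 0.

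The libraries of pMGH3::RTL1 did not sit alike on this list. Relative to the mean of WT Col-0, the median of the 20 genes was -0.18 in replicate 1 and 0.05 in replicate 2 on the log2 scale. DAF1, by far the most abundant, had 237461 in replicate 1 and 324997 in replicate 2 of pMGH3::RTL1, against 333104 and 345390 in WT Col-0. Per kilobase of transcript the normalized counts spanned 174028 for DAF1, 23672 for PCR11 and 12779 for DAZ3 down to 49.1 for DMP8 and 44.9 for DAZ1 in pMGH3::RTL1, against 209930, 19720, 12840, 56.9 and 73.0 in WT Col-0.

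Genes of the vegetative cell, in which the promoter is silent, served as a comparison. All 21 were well measured, and none was called or had an unadjusted p under 0.05. Within 2-fold lay 19 and within 1.5-fold 7, against 86.3% and 11.1% of all well-measured features. Without overlap, 9 were lower and 0 higher, beside 19.5% and 13.4% of all well-measured features. The median log2 fold change of the 21 was -0.03. VGD1, a pectin methylesterase of the pollen tube wall, had 1882080 and 1751720 in pMGH3::RTL1 against 1793510 and 1688280 in WT Col-0. The genes of the small RNA and DNA methylation machinery were mostly near the limit of detection. Of 31, 6 were well measured, none was called or had an unadjusted p under 0.05, and 5 of the 6 lay within 2-fold. MET1, the methyltransferase that copies CG methylation, had 1773 and 2036 in pMGH3::RTL1 against 2351 and 2459 in WT Col-0, and DDM1, a chromatin remodeller that keeps TEs silent, had 1532 and 1718 against 2061 and 2004. Both were lower in both lines without passing the test (log2 fold changes -0.34 ± 0.22 SE and -0.32 ± 0.21 SE, DESeq2 adjusted p 1 each).

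The size of effect that the data can bound followed the number of reads. At a mean normalized count of 20 to 50, the largest fold inside a gene's 95% interval had a median of 2.90, and none of 2013 genes could be shown to lie within 2-fold. The median was 2.12 at 50 to 100 and 1.70 at 100 to 300, where 70.5% of 1943 genes lay within 2-fold. At 300 to 1000 it was 1.46 and 95.9% of 1695 genes lay within 2-fold, and above 10000 it was 1.33. More genes were placed within 2-fold at low counts by edgeR, 15.6% at 20 to 50, 63.4% at 50 to 100 and 92.2% at 100 to 300. By DESeq2 the shares were 0%, 8.40% and 70.5%. The edgeR bound is a different test, a t test adjusted over the 12690 features that edgeR kept, against 27651 for DESeq2. A bound of 1.5-fold was within reach only of abundant genes, with 27.9% of those at 1000 to 10000 and 47.4% of those above 10000. TEs outside genes were bounded less often, 56.0% of 91 at 100 to 300 within 2-fold, and 2-fold held for 67.5% of all 157 that were well measured. Over all features, 5219 were shown to lie within 2-fold and 652 within 1.5-fold. At a mean above 10000, the median SE of genes was 0.167 in the fit of 6 libraries, which includes pLAT52::RTL1, and 0.0984 in the fit of 4. The tighter bound depends on this estimate of the spread. It held for 2618 features in the fit of 4 libraries, 2024 by edgeR and 0 with any 1 of the 4 libraries left out.

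**Figure D3:**
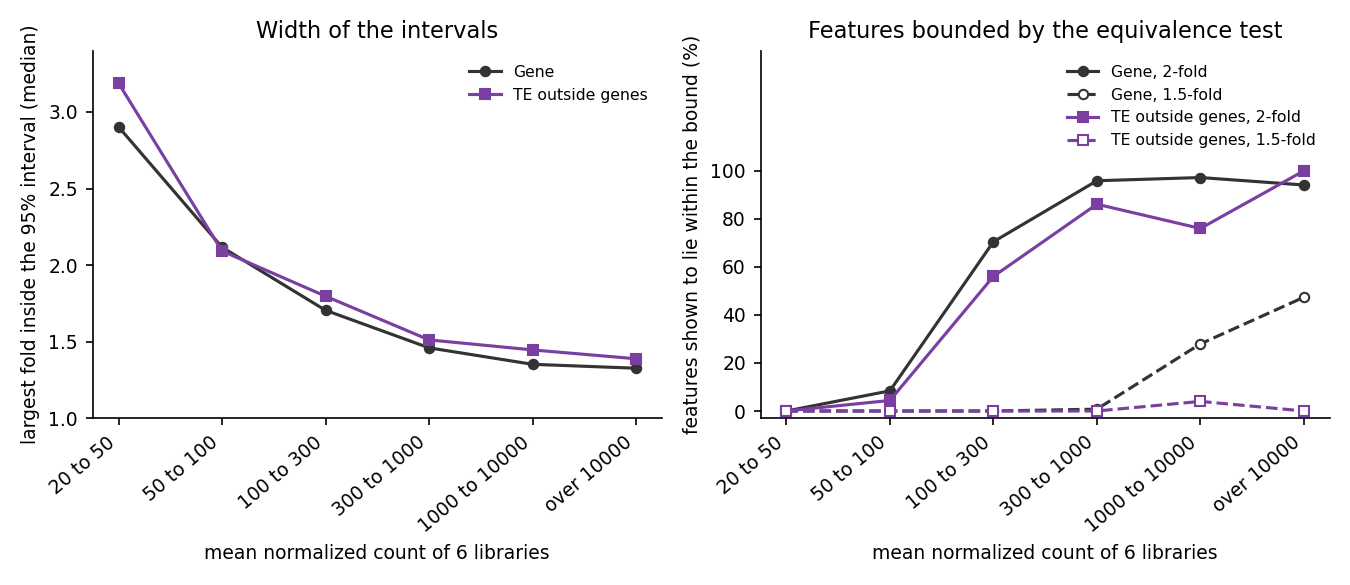
Left, the median over features of the largest fold change inside the 95% interval of pMGH3::RTL1 over WT Col-0, by mean normalized count. Right, the share of features shown to lie within 2-fold (solid) and 1.5-fold (dashed), for genes and for TEs outside genes. The median for genes is 2.90 at 20 to 50 counts and 1.33 above 10000.

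The loci whose small RNAs were lower in pMGH3::RTL1 pollen, by the study's list of 247 loci from small RNA libraries, can be followed in messenger RNA. Of its 54 genes and 193 TEs, 164 had reads and 35 were well measured, 24 genes and 11 TEs. None was called. Of the loci, 3, all of them TEs, had an unadjusted p under 0.05 with higher values and 0 with lower, of 164 tested, beside 0.727% and 0.387% of all features. The log2 fold changes of the 35 lay between -0.36 and 0.65, with a median of -0.08. Of the 24 genes, 19 lay within 2-fold, and of the 11 TEs, 5 did. These bounds hold for the whole grain, and the share of each locus's RNA that came from sperm was not measured. Several of these TEs overlap a gene of the same list and can count its reads, so the 35 are not all separate loci. AT1TE57770 and the gene AT1G47497 that it overlaps both had 112 and 135 reads in pMGH3::RTL1. TET12, DAZ2 and AT4G13000, a protein kinase gene, are on the list. AT4G13000 had 149 and 234 in pMGH3::RTL1, against 226 and 248 in WT Col-0.

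Copies of the LTR retrotransposon ATCOPIA36 stood at the upper end of that list. AT2TE27820 had normalized counts of 5162 and 6818 in pMGH3::RTL1 and of 3759 and 3114 in pLAT52::RTL1, against 4599 and 4289 in WT Col-0. AT1TE41800 had 391 and 605 in pMGH3::RTL1, against 352 and 281 in WT Col-0, while pLAT52::RTL1 had 249 and 199. Their log2 fold changes were 0.43 ± 0.19 SE and 0.65 ± 0.27 SE (unadjusted p 0.0231 and 0.0169, DESeq2 adjusted p 1 each). AT1TE62440, a copy that overlaps the gene AT1G50820, had 19142 and 15832 in pMGH3::RTL1, against 22040 and 18895 in WT Col-0. AT1TE41800 lies next to the SADHU element AT1TE41790 named above, and AT1TE41795, an ATCOPIA57 copy between them, had 16.4 and 24.2 in pMGH3::RTL1 against 15.2 and 12.8 in WT Col-0.

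Summed over the TEs of a family that overlap no gene, none of 172 families was called by DESeq2 (0%) or by edgeR. At an unadjusted p under 0.05, 9 of the 172 families were higher and 0 lower. Some of the 9 follow a single TE that is described again below. In pMGH3::RTL1, AT3TE89570 held 9532 and 8076 of the 9648 and 8182 reads of ATDNA2T9C. AT1TE42205 held 2393 and 1634 of the 2474 and 1717 reads of ATSINE4. ATCOPIA36 had 5615 and 7523 in pMGH3::RTL1, against 5016 and 4628 in WT Col-0, the lowest p of the families the study names (log2 fold change 0.45 ± 0.22 SE, unadjusted p 0.0468, DESeq2 adjusted p 0.916), and 91.8% of these reads came from AT2TE27820. ATGP2, ATGP2N and VANDAL6, the other families the study names for the sperm construct, had log2 fold changes of 0.18 ± 0.28 SE, 0.05 ± 0.27 SE and -0.11 ± 0.21 SE, and each lay within 2-fold (DESeq2 lessAbs adjusted p at most 0.00479). ATCOPIA36 lay within 2-fold as well (adjusted p 0.0139), as did ATHILA4, ATHILA4A and ATLANTYS2, families named for the vegetative cell construct. ATHILA4A had 2630 and 2239 in pMGH3::RTL1, against 1775 and 2077 in WT Col-0, while pLAT52::RTL1 had 7234 and 4777. VANDAL3, with 86.6 and 53.7 in pMGH3::RTL1 against 22.8 and 62.1 in WT Col-0, and ATGP1, with 332 and 182 against 457 and 210, were too variable between replicates for a 2-fold bound. The 27197 TEs outside genes together had 1.01 times the normalized count of WT Col-0.

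More single TEs were higher than lower, and none passed the test. Among the 157 well-measured TEs outside genes, both pMGH3::RTL1 libraries were above both WT Col-0 libraries for 41 (26.1%) and below both for 14 (8.92%), whereas 713 of the 5548 genes were above and 1107 below. Of all 339 well-measured TEs, 16 with higher and 0 with lower values had an unadjusted p under 0.05, against 27 genes higher and 40 lower. The median log2 fold change was 0.05 for the TEs outside genes and -0.02 for genes. The 16 TEs had log2 fold changes from 0.43 to 0.89 and belong to 12 families, with SADHU, ATHILA4A and ATCOPIA36 named more than once. In the fit of 4 libraries 22 were higher and 1 lower, in the fit of all 10 libraries 0 of either, and without WT Col-0 replicate 1 the counts were 4 and 1. Without pMGH3::RTL1 replicate 1 or 2, 6 or 7 were higher. Whether TEs differ from genes in this was not tested, and copies of a family can share reads. The 16 are also not all separate stretches. AT1TE42205 (ATSINE4) ends at base 12942824 of chromosome 1 and AT1TE42210 (ATENSPM3) starts at base 12942825, so 1 run of reads may count in both.

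**Figure D4:**
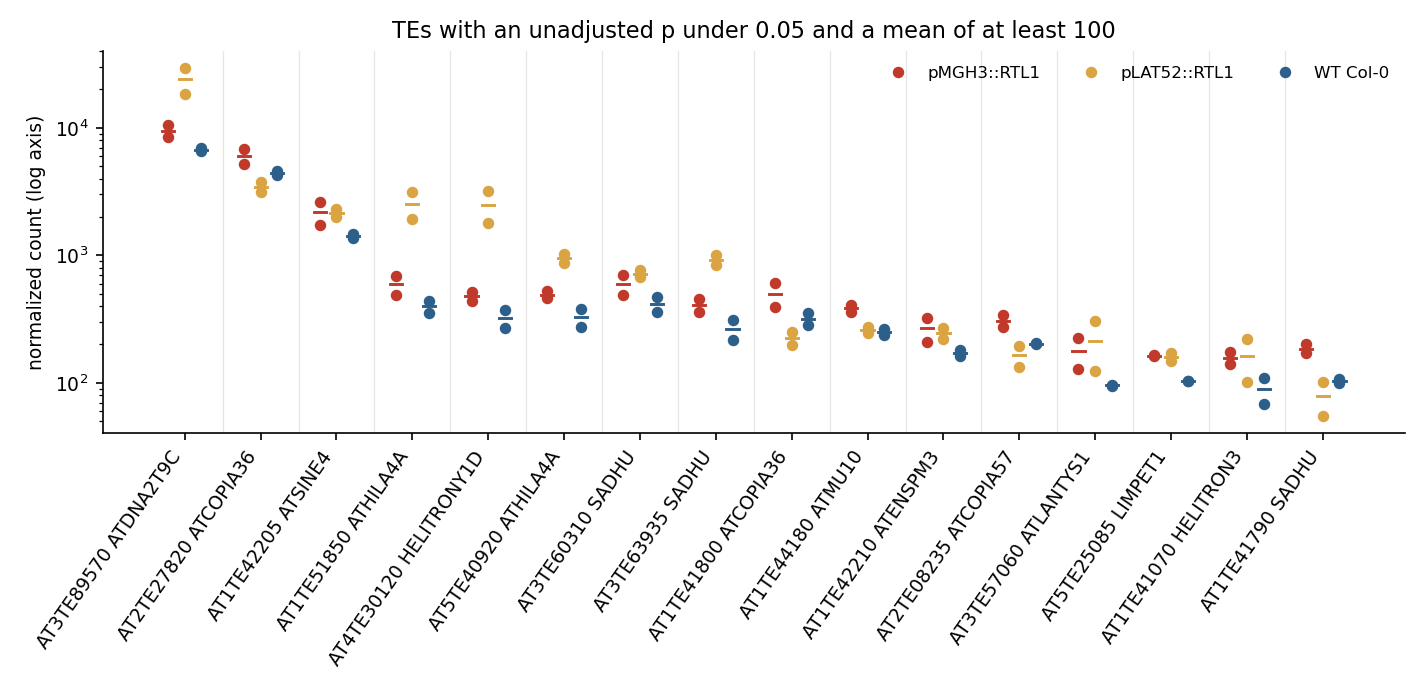
Normalized counts (log axis) in each library of pMGH3::RTL1, pLAT52::RTL1 and WT Col-0, with the mean as a bar, for the 16 well-measured TEs with an unadjusted p under 0.05, ordered by mean. All 16 are higher in pMGH3::RTL1, and AT3TE89570 is the most abundant, with 10444 and 8508 in pMGH3::RTL1 against 6901 and 6581 in WT Col-0.

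Members of this group took different levels with the other construct. AT3TE89570 (ATDNA2T9C) had 10444 and 8508 in pMGH3::RTL1, 29383 and 18525 in pLAT52::RTL1 and 6901 and 6581 in WT Col-0, and it was the single TE called in the fit of 4 libraries (DESeq2 adjusted p 0.0498). AT1TE51850, an ATHILA4A copy, had 692 and 489 in pMGH3::RTL1, 3116 and 1920 in pLAT52::RTL1 and 352 and 442 in WT Col-0. AT1TE42205, a SINE of the ATSINE4 family with the lowest p of the TEs, had 2622 and 1721 in pMGH3::RTL1 and 1372 and 1467 in WT Col-0 (log2 fold change 0.61 ± 0.21 SE, DESeq2 adjusted p 1). These TEs were chosen after their values were seen. The TE AT4TE30120 lies 52 bases from LCR11, a defensin-like gene with 4031 and 4360 in pMGH3::RTL1 against 2444 and 3553 in WT Col-0 (log2 fold change 0.48 ± 0.24 SE, DESeq2 adjusted p 1).

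RBCS1A (AT1G67090, chromosome 1, 25048158 to 25049424), the remaining call, encodes a small subunit of Rubisco, the carbon-fixing enzyme of leaves, and was not alone among the genes of photosynthesis. It had normalized counts of 72.3 and 96.9 in pMGH3::RTL1 and of 63.8 and 93.4 in pLAT52::RTL1, against 17.7 and 2.14 in WT Col-0. In pMGH3::RTL1 it rose by a log2 fold change of 3.14 ± 0.63 SE (adjusted p 0.00492 by DESeq2). Left out, each library but WT Col-0 replicate 1 ended the call. Its 95% interval ran from 3.76-fold to 20.6-fold, and its neighbours ABA4 and LBD40 held at most 4 reads in any library. Of the 20 photosynthesis genes, 11 did not overlap and were higher, beside 13.4% of all well-measured features, among which only 3 of these genes count. Of the list, 8 were higher at an unadjusted p under 0.05 against 0.727% of all features, and 0 were lower by either measure. RBCS1A is in both counts of higher genes, and the list was chosen with earlier results of these data known, so the shares are no test.

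LHCB1.3, a chlorophyll-binding protein of the light-harvesting antenna, had 70.1 and 112 in pMGH3::RTL1 and 25.3 and 23.5 in WT Col-0 (log2 fold change 1.90 ± 0.48 SE, DESeq2 adjusted p 0.297). LHCB5, another antenna protein, had 19.7 and 21.1 in pMGH3::RTL1 and 0 and 0 in WT Col-0, at least 5.82-fold higher, with a floor of 3 reads per library. PSBO1, a subunit of the oxygen-evolving complex, had 21.9 and 21.1 in pMGH3::RTL1 and 5.07 and 6.42 in WT Col-0. RCA, the activase of Rubisco, had 24.1 and 14.7 in pMGH3::RTL1 and 0 and 2.14 in WT Col-0.

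The abundant members of the list were flat. RBCS3B had 1008 and 1174 in pMGH3::RTL1 against 1005 and 1101 in WT Col-0, and RBCS1B and LHCB3 lay within 2-fold as well. The whole list summed to 1733 and 2006 in pMGH3::RTL1, 1236 and 1948 in pLAT52::RTL1 and 1493 and 1576 in WT Col-0, a log2 ratio of 0.29 for pMGH3::RTL1 over WT Col-0. Without those 3 genes, which were set apart after their values were seen, it summed to 375 and 502 in pMGH3::RTL1, 352 and 379 in pLAT52::RTL1 and 133 and 128 in WT Col-0. In that trimmed sum the log2 ratio was 1.75 and both groups of transgenic pollen stood above WT Col-0, their shared control, whereas in the whole list 1 pLAT52::RTL1 library lay below both WT Col-0 libraries. The Rubisco small subunits and the LHCB1 genes are near-identical copies between which reads can be split, and the part of green tissue in these values was not tested.

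**Figure D5:**
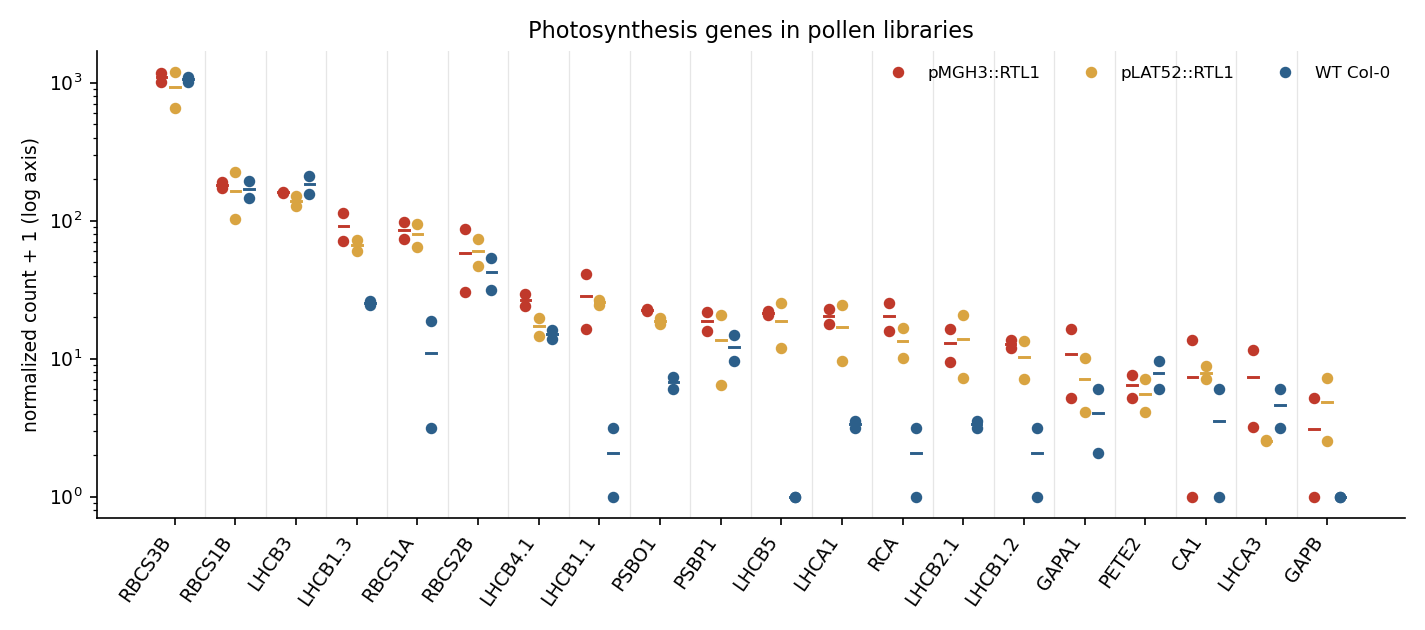
Normalized counts plus 1 (log axis) in each library of pMGH3::RTL1, pLAT52::RTL1 and WT Col-0, with the mean as a bar, for the 20 photosynthesis genes, ordered by mean. The 3 most abundant genes overlap between the groups, while LHCB1.3, RBCS1A, LHCB5 and RCA are higher in both pMGH3::RTL1 libraries than in either WT Col-0 library.

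No gene of the lists for other cell types and states was called. Of 11 tapetum genes, markers of the anther tissue that feeds the developing grain, 5 had reads and 1 was well measured, and their summed normalized count was 147 and 195 in pMGH3::RTL1 against 189 and 165 in WT Col-0. Of 12 heat shock genes, 0 were called by DESeq2 and 0 had an unadjusted p under 0.05, and their sum was 1304 and 1336 in pMGH3::RTL1 against 1622 and 1123 in WT Col-0.

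Reads outside genes and TEs gave no call either. They made up 2.40% and 2.42% of the counted reads in pMGH3::RTL1 and 2.23% and 2.30% in WT Col-0. Of 51389 intergenic intervals, 2197 on the nuclear chromosomes had enough reads to test and 0 passed (0%), with 24 at an unadjusted p under 0.05. The lowest p belonged to the interval between AT3G46840 and AT3G46850 on chromosome 3 (17254113 to 17256338), with 134 and 150 in pMGH3::RTL1 and 289 and 353 in WT Col-0 (log2 fold change -1.18 ± 0.30 SE, DESeq2 adjusted p 0.212).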

How the data were processed

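RNA-seq libraries were made from total RNA of pollen of greenhouse plants, and by the study's methods messenger RNA was sequenced. Per the submitters' processing notes, reads were aligned with STAR to TAIR10, and the counts that the authors deposited for genes, TEs and intergenic intervals are raw. The counting program, strand setting and treatment of reads from repeats are not given in the sources used here. Between 65.7% and 68.1% of features with over 20 reads in the 6 libraries held an even count, so both mates of a pair may have been counted. Counts may then overstate independent molecules, and the floor of 3 reads covers counting error only. Genes and TEs (27394 and 31189, of which 3992 TEs overlap genes) entered 1 fit (R 4.3.3, DESeq2 1.42.0, default size factors) with the Wald test, unshrunken fold changes and Benjamini-Hochberg adjustment at 0.05, on the 6 libraries of pMGH3::RTL1, pLAT52::RTL1 and WT Col-0. The study's methods use DESeq2, and edgeR 4.0.16 is an alternative. Bounds come from the lessAbs test at 2-fold and 1.5-fold. Those given by edgeR come from a t test on the standard error implied by its fold change and F statistic. The p-values measure the spread between these libraries. Families and intervals needed a mean of at least 20. Scripts were tested on simulated data.

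The members, gene lists and tests were chosen with earlier results of these data known. Named are RTL1, every call and its neighbours, the 10 genes and 5 TEs of the widest gap each way, 10 sperm genes and any of the list outside 2-fold, and the families of the study. Any other name was chosen after its values were seen. Symbols came from RefSeq's TAIR10.1 table for 98.2% of genes, and the 5 nuclear chromosomes have the same length there.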

Additional observations from a re-analysis of the deposited data

How the results depend on the processing

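Of the 6 calls, 1 remained by edgeR, 2 in the fit of all 10 libraries, and 12 features were called in the fit of 4 libraries. Leaving out one library at a time gave 1 to 4 calls. Features within 2-fold numbered 1372 in the fit of 10 libraries and 2904 to 3205 with a library left out. Features within 1.5-fold numbered 2024 by edgeR, 2618 in the fit of 4 libraries, 1787 with at least 10 counts in at least 2 libraries and 0 in the fit of 10 libraries, with the replicate block and with a library left out (0 to 0). Measured sperm lineage genes within 2-fold numbered 4 in the fit of 10 libraries and 11 to 15 with a library left out, and those within 1.5-fold 6 by edgeR, 11 in the fit of 4 libraries, 6 with the count filter, 0 in the fit of 10 libraries and with the block, and 0 to 0 with a library left out. Their median log2 fold change ranged from -0.18 to 0.05 with a library left out. Features with the 1.5-fold gap numbered 8 higher under scaling by total reads, 55 higher and 46 lower at a gap of 25%, 1 and 2 at a gap of 2-fold, 84 and 60 at a mean of at least 20, and 25 to 67 higher and 23 to 71 lower with a library left out. No TE family was called by edgeR, in the fit of 4 libraries, with TMM factors, scaling by total reads, the replicate block or all TEs, or with a library left out, and 1 intergenic interval was called in the fit of 4 libraries (0 to 1 with a library left out).

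Replicate numbers are not said to pair the samples. Between-replicate differences of pMGH3::RTL1 and WT Col-0 correlated at r = 0.17 over 5887 features, those of pMGH3::RTL1 and pLAT52::RTL1 at 0.26, and those of pLAT52::RTL1 and WT Col-0 at -0.05. With the replicate block 6 features were called, 5 of them shared, with AT1G58220 in place of AT2G39240. The number of TEs and of photosynthesis genes at an unadjusted p under 0.05, added after seeing the data, ranged over all alternatives from 0 to 22 and 5 to 9 higher and from 0 to 3 and 0 to 0 lower. The causes were not tested. How many genes of low counts are bounded differs between DESeq2 and edgeR, with 8.40% and 63.4% within 2-fold at a mean of 50 to 100. Their bound tests and their sets of tested features differ as well.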

Other observations

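Some well-measured genes differed between the pMGH3::RTL1 lines more than between pMGH3::RTL1 and WT Col-0, and they were chosen after their values were seen. CSY5, a citrate synthase gene, had normalized counts of 81.1 in replicate 1 and 488 in replicate 2 of pMGH3::RTL1, against 68.4 and 77.0 in WT Col-0. NAC105, a NAC transcription factor gene, had 296 in replicate 1 and 69.5 in replicate 2 of pMGH3::RTL1, against 259 and 270 in WT Col-0. Of the 5887 well-measured features, 234 differed by over 1.5-fold between the pMGH3::RTL1 libraries and 229 between the WT Col-0 libraries. CNGC13, a cyclic nucleotide-gated channel gene, had 2481 and 2122 in pMGH3::RTL1, against 1239 and 1517 in WT Col-0, and was called in the fit of 4 libraries but not in that of 6 (log2 fold change 0.74 ± 0.20 SE, DESeq2 adjusted p 0.472). AT1G04790, a RING/U-box protein gene, had 689 and 634 in pMGH3::RTL1, against 1042 and 1214 in WT Col-0, with the same adjusted p of 0.472 by DESeq2.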
